A study of Homo sapiens with 4 samples.

Results

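The genes described here encode the machinery that shortens the poly(A) tail of mRNAs, removes the 5′ cap, degrades the body of the message from either end and carries out nonsense-mediated decay (NMD). They were taken from a list of 43 gene symbols, and 42 of these matched at least 1 of 69 probes on the arrays. CNOT6 matched no probe through the tables used here. PAN2, DCP1B and DIS3 were not well above background on any array, and the other 39 genes were kept among 13038 genes in all, with 55 probes. The comparison asked which of these mRNAs were recovered with the RNA-binding protein TIA1. Cytoplasmic lysates were immunoprecipitated with an anti-TIA1 antibody (TIA1 RIP), and the recovered RNA was hybridized to 2 single-colour Agilent arrays. Another 2 arrays received the input, labelled as total RNA. The sources do not settle whether this was RNA of the cytoplasmic lysate or of whole cells, so a ratio may compare cytoplasmic with whole-cell RNA. All 4 samples came from KYSE180 cells, an established line of esophageal squamous cell carcinoma, and the labels give no treatment. Arrays of IgG immunoprecipitates were not analysed here. The labels do not say whether replicates came from separate cultures, and p-values then measure only the spread between these samples, which may be technical. In RNA from a whole culture, fewer cells with a transcript and less transcript per cell cannot be told apart.

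Most cytoplasmic mRNAs lose their poly(A) tail first. PAN2-PAN3 trims long tails and the CCR4-NOT complex removes the rest, after which DCP2 cleaves the cap and XRN1 degrades the message from its 5′ end, or the exosome degrades it from the 3′ end. NMD removes messages with a premature stop codon, through UPF1 and the SMG proteins. TIA1 binds U-rich stretches, often in 3′ untranslated regions (UTRs), and is a component of stress granules.

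Signals are given as the log2 processed signal less the 75th percentile of the array, and the log2 ratio of a gene is its mean in TIA1 RIP less its mean in total RNA, less the median of the same difference over all genes kept (-0.04). The arrays differed in brightness. The signal at the 75th percentile was 1514 and 1271 in TIA1 RIP and 714 and 69.9 in total RNA replicates 1 and 2, and 45.8%, 48.4%, 47.6% and 32.2% of the spots were well above background. Among the 39 genes the TIA1 RIP arrays correlated with r = 0.96 and the total RNA arrays with r = 0.78, and the median absolute difference between replicates was 0.42 in TIA1 RIP and 1.59 in total RNA. Values are therefore also given against each total RNA array alone. In total RNA replicate 2, 11 of the 39 genes were not well above background. All 12 squamous and epithelial markers were detected on every array. Of 9 markers of other cells, 3 to 5 were detected on an array. PTPRC, CD79A, VIM, COL1A1 and VWF were each detected on at least 1 array, while CD3E, COL1A2, PECAM1 and ALB were detected on none.

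No gene of mRNA decay differed between TIA1 RIP and total RNA past the threshold (limma, adjusted p from 0.776 to 0.998). The same held for all genes, of which 0% passed an adjusted p-value of 0.05. At an unadjusted p-value under 0.05, 1 of the 39 genes (CNOT8) stood beside 5.12% of all genes. The rest of the text describes sizes and directions. With each TIA1 RIP array set against each total RNA array, 8 of the 39 genes (20.5%) lay above the median of all genes in all 4 pairs of arrays, beside 20.2% of all genes. A further 7 (17.9%) lay below it in all 4 pairs, beside 21.3% of all genes. Both shares were close to those of all genes. The 4 pairs share arrays and are not independent. The 8 genes above were CNOT6L, CNOT7, CNOT8, CNOT9, CNOT11, LSM1, EXOSC7 and UPF3B, and the 7 below were EDC4, EXOSC4, EXOSC5, EXOSC6, UPF1, SMG1 and SMG5. Of the 8, CNOT8, CNOT9 and UPF3B were kept only through their detection on the TIA1 RIP arrays.

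**Figure D1:**
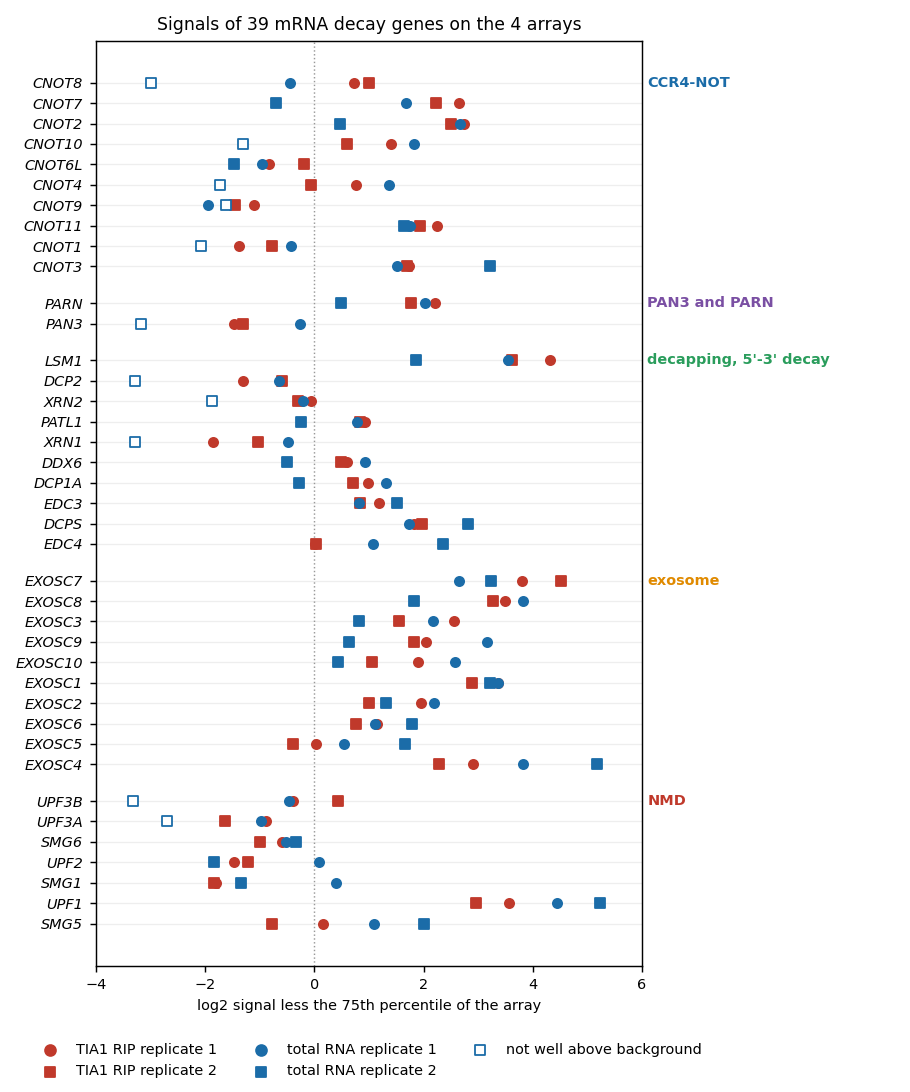
Log2 signal less the 75th percentile of the array (horizontal axis) for 39 genes, grouped by complex and ordered by log2 ratio, on TIA1 RIP replicates 1 and 2 (red) and total RNA replicates 1 and 2 (blue). Open squares are the 11 genes whose kept probes were not well above background in total RNA replicate 2. CNOT8 lies to the right in both TIA1 RIP arrays (0.73 and 1.01) and EXOSC4 in both total RNA arrays (3.83 and 5.17).

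As TIA1 is known for binding U-rich RNA, the stretches of 30 bases with the most U in the 3′ UTR of the GENCODE canonical transcript are shown for 3 genes that lay above all genes in every pair and 3 that lay below. They were picked among those with the largest ratios, with the values known, and CNOT7, LSM1 and EXOSC4 are not shown. Sequences are written 5′ to 3′ on the RNA strand, with runs of at least 4 U in capitals. Coordinates are of GRCh37.
CNOT8 (chr5:154255343-154255372, plus strand): uguugucauucUUUUUcUUUUaaauuuguu
UPF3B (chrX:118968241-118968270, minus strand): agUUUUaggauuagUUUUagUUUUUUguuu
EXOSC7 (chr3:45052850-45052879, plus strand): aacuguggauugUUUUUUacUUUUccUUUU
SMG5 (chr1:156219692-156219721, minus strand): uucugcuuugugucucccucugucuagcuu
EDC4 (chr16:67918329-67918358, plus strand): UUUUUaccucuaauuuggaucUUUUUguuu
UPF1 (chr19:18977643-18977672, plus strand): uuuccucuguucUUUUauuucUUUUUcucu

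These stretches held 20, 19 and 18 U in CNOT8, UPF3B and EXOSC7, and 15, 19 and 21 in SMG5, EDC4 and UPF1. The median over all genes with a 3′ UTR was 18 of 30, and a longer UTR has more stretches to choose from. Over all 15 genes that lay on one side in every pair, the stretch with the most U held 18 to 30 U in the 8 above (median 20.5) and 6 to 28 in the 7 below (median 19), and these ranges overlap. The fewest were in EXOSC4 (6) and EXOSC5 (11), both below, and the most in CNOT6L (30) and CNOT9 (29), both above. SMG5 had the fewest U of the 6 and no run of 4 U in its stretch. EXOSC7 carried its stretch in a 3′ UTR of 132 bases, and UPF1 in a UTR of 1713 bases. A match to U-rich letters is a description and not a site.

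CCR4-NOT, the main cytoplasmic deadenylase, had the highest median ratio of the subgroups with more than a pair of genes when all 4 arrays were used. Its 10 genes had a median log2 ratio of 0.66 (range -0.62 to 2.62), and 9 of the 10 lay above all genes on the means. The median was 0.19 against total RNA replicate 1 and 1.83 against total RNA replicate 2, and 5 of the 10 lay above all genes in all 4 pairs while 0 lay below, beside 20.2% and 21.3% of all genes. Of these 5, CNOT8 and CNOT9 passed the detection filter only through the TIA1 RIP arrays. So did 1 of the 2 kept probes of CNOT6L and 1 of the 2 of CNOT7, and the count of 5 is therefore no support for a direction. CNOT1, CNOT4 and CNOT10, which enter the median, were also kept only through TIA1 RIP.

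The paralogous deadenylases CNOT8 and CNOT7 had the highest ratios of the complex. CNOT8, 1 of a pair of paralogous exonucleases, had signals of 0.73 and 1.01 in TIA1 RIP and -0.44 and -2.99 in total RNA. Both TIA1 RIP values lay above both total RNA values, and the last of these was not well above background. Its log2 ratio was 2.62, the highest of the 39 genes on the measured values, with an SE of 1.03 and an adjusted p of 0.776 in limma. The rank depended on the dim array, since CNOT8 came to 1.88 and CNOT7 to 2.17 with a floor at the lowest signal well above background, and to 1.46 and 1.79 after normexp background correction. Against total RNA replicate 1 the ratio was 1.23. Against replicate 2, the total RNA value was set to no less than the lowest signal well above background (-1.12). TIA1 RIP was then 4.84-fold higher relative to all genes. A probe of EDC4 that was not well above background there stood at -0.84, above that signal, so such values are no strict lower bounds. The canonical transcript of CNOT8 lies on the plus strand of chromosome 5 from 154238187 to 154256352.

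CNOT7, the paralog of CNOT8, had signals of 2.65 and 2.22 in TIA1 RIP and 1.68 and -0.70 in total RNA. Its ratio was 1.98 (0.68 against total RNA replicate 1 and 3.42 against replicate 2), and both of its probes lay above all genes against either array, although 1 of the 2 was not well above background in total RNA replicate 2. Signal from the paralog at the probes of CNOT7 and CNOT8 could not be checked without probe sequences. CNOT6L, a nuclease of the other catalytic family of the complex, stood at -0.83 and -0.18 in TIA1 RIP and -0.96 and -1.47 in total RNA. Its ratio was 0.74, and 1 of its 2 probes was not well above background in total RNA replicate 2.

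The remaining subunits spread around these. CNOT9, which binds the silencing factor GW182, stood at -1.11 and -1.45 in TIA1 RIP and -1.94 and -1.62 in total RNA, the last not well above background. CNOT11, part of a module with CNOT10, stood at 2.24 and 1.93 in TIA1 RIP and 1.75 and 1.65 in total RNA. These are the genes of the complex with the smallest gaps between total RNA arrays, and their ratios were 0.54 and 0.42. CNOT10 itself, at 1.41 and 0.60 in TIA1 RIP, lay below total RNA replicate 1 (1.82) and above replicate 2 (-1.30, not well above background).

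CNOT1, the scaffold on which the complex is built, showed the same split, at -1.37 and -0.78 in TIA1 RIP against -0.43 and -2.07 (not well above background) in total RNA. CNOT2 stood at 2.74 and 2.495 in TIA1 RIP, near total RNA replicate 1 (2.66) and above replicate 2 (0.47). CNOT4, a ubiquitin ligase, had a ratio of -1.08 against replicate 1. In replicate 2 it was not well above background. With the lowest signal well above background in its place, the ratio there was 1.76. The sign for these 4 genes was set by which total RNA array served as the reference.

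CNOT3, the partner of CNOT2, was the only member of the complex below all genes on the means (-0.62). Its signals were 1.73 and 1.69 in TIA1 RIP and 1.52 and 3.22 in total RNA, so that the ratio was 0.12 against replicate 1 and -1.21 against replicate 2. Its 2 probes gave 0.85 and -0.61 against replicate 1.

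**Figure D2:**
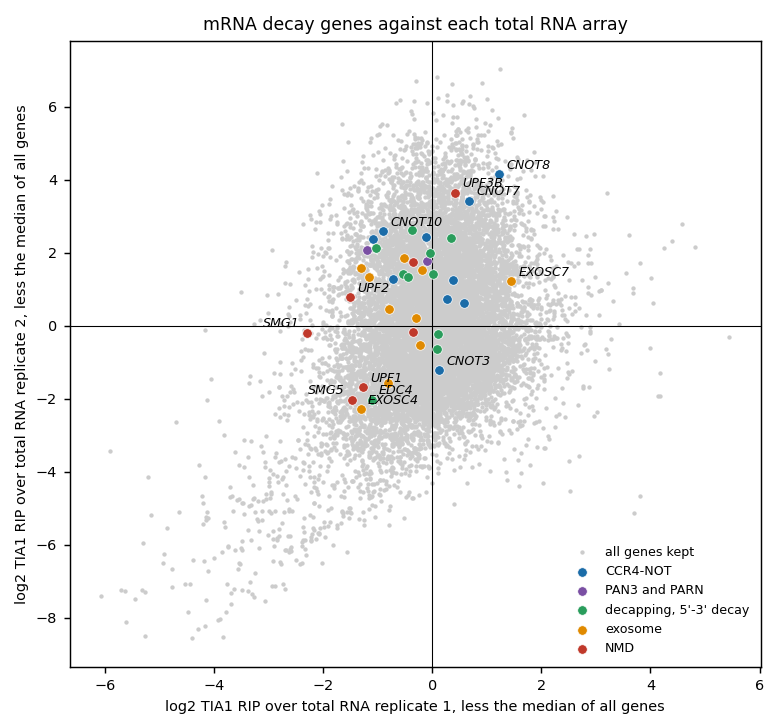
Log2 ratio of TIA1 RIP (mean of 2 arrays) over total RNA replicate 1 (horizontal axis) and over total RNA replicate 2 (vertical axis), each less the median of all genes, for all 13038 genes (grey) and the 39 genes of mRNA decay (coloured by complex). CNOT8 and EXOSC7 lie at the upper right (1.23 and 1.44 on the horizontal axis), SMG5 and EXOSC4 at the lower left (-1.48 and -1.31), and many genes lie at the upper left, below all genes against replicate 1 and above them against replicate 2.

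Of the other deadenylases, PAN3, the adaptor that brings PAN2 to the tail, and PARN, a poly(A)-specific ribonuclease, were measured. PARN stood at 2.21 and 1.78 in TIA1 RIP and 2.02 and 0.50 in total RNA. PAN3 stood at -1.48 and -1.31 in TIA1 RIP and at -0.27 and -3.18 in total RNA, the last not well above background. With the lowest signal well above background in place of the last value, its ratio against replicate 2 was 0.01. Both lay below all genes against total RNA replicate 1 (-0.10 and -1.20) and above them against replicate 2 (1.79 and 2.07), so neither had a settled direction.

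The genes of decapping and 5′-3′ decay had a median ratio of 0.42 (range -1.64 to 1.30, 10 genes). The median was -0.21 against total RNA replicate 1 and 1.41 against replicate 2. In all 4 pairs, 1 gene (LSM1) lay above all genes and 1 (EDC4) below, and these mark the ends of the subgroup.

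LSM1, a subunit of the ring that binds shortened tails and promotes decapping, stood at 4.31 and 3.61 in TIA1 RIP and 3.54 and 1.86 in total RNA. Its ratio was 1.30, but 1 of the pairs exceeded the median of all genes by only 0.007. EDC4, the scaffold of the decapping complex, stood at 0.02 and 0.04 in TIA1 RIP and at 1.07 and 2.35 in total RNA. Its ratio was -1.64 (SE 0.84, adjusted p = 0.776 in limma), and both of its probes lay below all genes against either array. The canonical transcript of EDC4 lies on the plus strand of chromosome 16 from 67906955 to 67918402.

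DCP2, the enzyme that cleaves the cap, stood at -1.31 and -0.59 in TIA1 RIP and -0.65 and -3.28 (not well above background) in total RNA. Its activator DCP1A stood at 0.99 and 0.70 in TIA1 RIP and 1.32 and -0.28 in total RNA. DDX6, the helicase that links deadenylation to decapping, stood at 0.60 and 0.48 in TIA1 RIP and 0.92 and -0.50 in total RNA. In these 3 genes the TIA1 RIP mean lay between the total RNA arrays, and the ratios (1.05, 0.36 and 0.37) rest on replicate 2.

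The 5′-3′ exonucleases behaved in the same manner. XRN1, which acts in the cytoplasm, had a ratio of -1.04 against total RNA replicate 1 and 2.13 against replicate 2, where it was not well above background. Set to the lowest signal well above background, the second value became -0.03. XRN2, its nuclear counterpart, had a ratio of -0.04 against replicate 1. It too was not well above background in replicate 2, where the ratio with that lowest signal was 1.23. PATL1, a decapping activator, lay near all genes against replicate 1 (0.02) and at 1.41 against replicate 2.

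EDC3, another decapping enhancer, and DCPS, which hydrolyses the cap left after 3′-5′ decay, went the other way. EDC3 had ratios of 0.11 against replicate 1 and -0.21 against replicate 2, and DCPS 0.09 and -0.63.

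**Figure D3:**
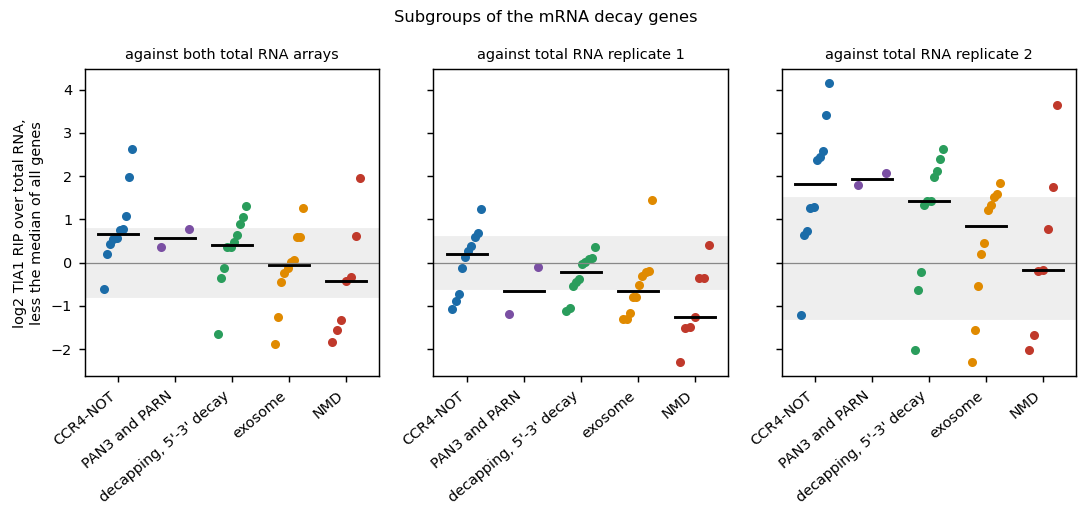
Log2 ratio of TIA1 RIP over total RNA, less the median of all genes, for each gene by subgroup (points, with the median as a black line), against both total RNA arrays, replicate 1 alone and replicate 2 alone. The grey band is the range between the quartiles of all genes. The median of CCR4-NOT lies above that of NMD in each panel (0.66 and -0.43, 0.19 and -1.27, 1.83 and -0.17).

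The exosome, the 3′-5′ nuclease complex, had a median ratio near all genes at -0.06 (range -1.87 to 1.26, 10 genes). It was -0.65 against total RNA replicate 1, where 9 of 10 genes lay below all genes, and 0.84 against replicate 2, where 7 of 10 lay above. In all 4 pairs, 1 gene lay above and 3 below.

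The ring subunits stood at both ends. EXOSC7 had signals of 3.80 and 4.52 in TIA1 RIP and 2.65 and 3.23 in total RNA, with no overlap between the groups. Its ratio was 1.26 (SE 0.80, adjusted p = 0.776 in limma), and of the 39 genes it had the highest ratio against total RNA replicate 1 (1.44), with 1.22 against replicate 2. Its canonical transcript lies on the plus strand of chromosome 3 from 45017736 to 45052963.

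EXOSC4 had signals of 2.90 and 2.28 in TIA1 RIP and 3.83 and 5.17 in total RNA, again with no overlap, and its ratio of -1.87 was the lowest of the 39 genes (SE 0.86, adjusted p = 0.776 in limma). EXOSC5 stood at 0.03 and -0.40 in TIA1 RIP and 0.55 and 1.67 in total RNA, for a ratio of -1.26. EXOSC6 had a ratio of -0.45, and its signals overlapped, at 1.16 and 0.77 in TIA1 RIP and 1.11 and 1.79 in total RNA. Relative to the median of all genes, 1 of its pairs stood at only -0.02. EXOSC7 and EXOSC4 encode subunits of the same ring, and their ratios differed by more than those of any other pair within the complex.

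Of the remaining ring genes, EXOSC8 stood at 3.49 and 3.28 in TIA1 RIP and 3.82 and 1.83 in total RNA, and EXOSC9 at 2.04 and 1.83 in TIA1 RIP and 3.16 and 0.63 in total RNA. EXOSC10, a nuclease associated mainly with the nuclear exosome, had ratios of -1.17 and 1.34 against replicates 1 and 2. The genes of the cap that contacts RNA, EXOSC1, EXOSC2 and EXOSC3, had ratios of -0.13, -0.24 and 0.59. All of these 6 genes lay below all genes against replicate 1 and above them against replicate 2.

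The genes of NMD had the lowest median ratio, -0.43 (range -1.83 to 1.96, 7 genes). It was -1.27 against total RNA replicate 1, where 6 of 7 genes lay below all genes, and -0.17 against replicate 2, where 4 of 7 did. In all 4 pairs, 3 genes lay below and 1 above. The medians of CCR4-NOT, decapping, exosome and NMD had this order against either total RNA array, which share the TIA1 RIP arrays, and the ranges overlap. PAN3 and PARN (-0.65 and 1.93) kept no fixed place in it, and with only probes detected on all 4 arrays the exosome (0.26) lay above decapping (0.20). Without TIA1 RIP replicate 1, decapping (0.40) lay above CCR4-NOT (0.39).

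UPF1, the helicase at the centre of NMD, stood at 3.56 and 2.96 in TIA1 RIP and 4.45 and 5.23 in total RNA. The groups did not overlap, and its ratio was -1.55 (SE 0.81, adjusted p = 0.776 in limma). SMG5, which binds phosphorylated UPF1, stood at 0.16 and -0.78 in TIA1 RIP and 1.09 and 2.01 in total RNA. Its ratio was -1.83, and both of its probes lay below all genes against either array (-1.18 and -1.77 against replicate 1). The canonical transcript of UPF1 lies on the plus strand of chromosome 19 from 18942768 to 18979039, and that of SMG5 on the minus strand of chromosome 1 from 156219015 to 156252616.

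SMG6, the endonuclease of NMD, was close to all genes at -0.33, with signals of -0.59 and -0.99 in TIA1 RIP and -0.51 and -0.33 in total RNA. UPF3B, which joins the exon junction complex to UPF2, went the opposite way. It stood at -0.38 and 0.43 in TIA1 RIP and -0.47 and -3.33 in total RNA, the last not well above background, for a ratio of 1.96. Its lowest pair exceeded all genes by only 0.02. With the lowest signal well above background in place of its value in replicate 2, TIA1 RIP was 2.70-fold higher relative to all genes. Its paralog UPF3A had a ratio of -0.35 against replicate 1. It was not well above background in replicate 2 either, where the ratio with that lowest signal was 0.15. Whether probes of UPF3A and UPF3B take signal from each other could not be checked. The canonical transcript of UPF3B lies on the minus strand of the X chromosome from 118967985 to 118986926.

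SMG1, the kinase that phosphorylates UPF1, and UPF2, the adaptor between UPF1 and UPF3B, had several probes that did not give the same value. SMG1 stood at -1.81 and -1.84 in TIA1 RIP and 0.41 and -1.35 in total RNA over 7 probes kept of 9, for a ratio of -1.32, and -2.30 against replicate 1 was the lowest of the 39 genes. All 9 probes were lower in both TIA1 RIP arrays than in total RNA replicate 1, but the ratios of the 7 kept ranged from -4.93 to -0.44 against that array. The brightest probe stood at 2.18 and 1.58 in TIA1 RIP and 2.25 and 0.51 in total RNA, and alone it turned the ratio to 0.54. SMG1 has near-identical partial copies elsewhere in the genome, and the gene from which each probe takes its signal is uncertain.

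UPF2 stood at -1.47 and -1.21 in TIA1 RIP and 0.09 and -1.83 in total RNA over 2 probes kept of 5, for a ratio of -0.43. All 5 probes were detected in total RNA replicate 1 and were higher there than in both TIA1 RIP arrays. Detection on both TIA1 RIP arrays was reached by 2 of them and in total RNA replicate 2 by 1. Against replicate 2 the ratio of the gene was 0.78.

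**Figure D4:**
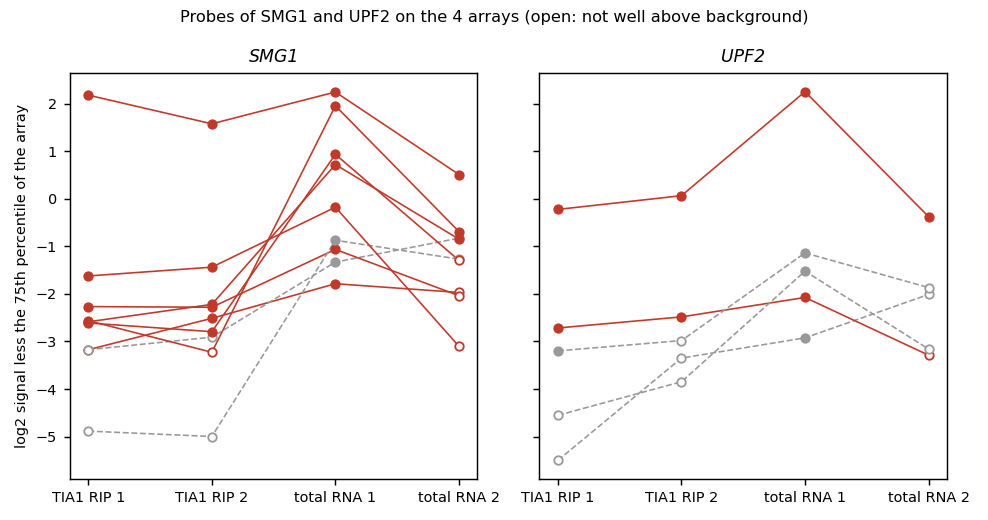
Log2 signal less the 75th percentile of the array for each probe of SMG1 (9 probes) and UPF2 (5 probes) on the 4 arrays. Lines join the values of a probe, red for probes kept and dashed grey for those left out, and open points are not well above background. Every probe lies higher in total RNA replicate 1 than on either TIA1 RIP array, by little for the SMG1 probe at 2.18, 1.58, 2.25 and 0.51.

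Relative to GAPDH, the reference mRNA of the study, most of these genes were past 2.5-fold. GAPDH had signals of 6.49 and 6.69 in TIA1 RIP and 7.67 and 9.63 in total RNA, so that its own ratio was -2.02. On this scale 33 of the 39 genes (84.6%) were past 2.5-fold above GAPDH, beside 72.4% of all genes, and 0 were past 2.5-fold below it. Against total RNA replicate 1 alone the count was 8 (20.5%), beside 42.3% of all genes, and against replicate 2 alone it was 34 (87.2%), beside 77.5%. The share of these genes thus lay above the background with replicate 2 and below it with replicate 1. Of the 39 genes, 11 were not well above background in replicate 2 and were kept only through TIA1 RIP. All 11 are among the 33. The shares on the means and with replicate 2 are therefore no support for a direction.

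All 10 genes of CCR4-NOT passed 2.5-fold on the means, beside 72.4% of all genes. Against replicate 1 alone 5 of the 10 did, beside 42.3%. In replicate 2, 5 of the 10 were not well above background, and these were kept only through the TIA1 RIP arrays. Those with every kept probe detected on all arrays ranged from 2.65-fold in CNOT3 to 8.64-fold in CNOT2. CNOT7 was at 15.99-fold, with 1 of its 2 probes not well above background in replicate 2. The 6 of the 39 genes not past 2.5-fold on the means were EDC4, EXOSC4, EXOSC5, UPF1, SMG1 and SMG5, between 1.11-fold and 1.70-fold. The 8 genes past 2.5-fold against replicate 1 alone were the same 8 that lay above all genes in all 4 pairs, from 2.66-fold in CNOT11 to 6.03-fold in EXOSC7. Both counts use the same signals of TIA1 RIP and replicate 1, so the match is no separate support. In limma on values relative to GAPDH, 0 of the 39 genes passed an adjusted p-value of 0.05 (0% of all genes), and CNOT8, CNOT9 and EXOSC7 had an unadjusted p-value under 0.05 (0.046, 0.040 and 0.014), beside 20.2% of all genes.

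The total RNA arrays did not weigh equally in these results. With total RNA replicate 2 left out, 19 of the 39 genes changed sign, and the median over the 39 moved from 0.37 to -0.35. With total RNA replicate 1 left out it was 1.33, and limma called 10 of the 39 genes, beside 29.9% of all genes, on the assumption that the single total RNA array left varies like the TIA1 RIP pair. These were CNOT2, CNOT7, CNOT8, CNOT10, DCP2, LSM1 and UPF3B, which were higher in TIA1 RIP, and EDC4, EXOSC4 and SMG5, which were lower. CNOT8, CNOT10, DCP2 and UPF3B were not well above background in total RNA replicate 2, the only reference left. They passed the detection filter only through the TIA1 RIP arrays, as did 1 of the 2 probes of CNOT7. Their calls are therefore no support for a direction.

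Base composition moved with the ratio. Over the canonical transcripts of the 39 genes, Spearman's rho between the log2 ratio and the GC content was -0.62 (Pearson's r = -0.72), and it was -0.66 over 11594 genes with a transcript. Against total RNA replicate 1 it was -0.11 (-0.05 over all genes), and against replicate 2 it was -0.76 (-0.74). With the U content of the 3′ UTR rho was 0.67 over the 39 genes and 0.59 over all genes, and 0.30 and 0.07 against replicate 1. These are descriptions across genes that share the same 4 arrays, and genes are not independent replicates.

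The genes at either end also differed in composition. The 8 genes above in all 4 pairs had a median GC content of 43.4% and a median U content of 34.6% in the 3′ UTR, and the 7 below had 59.8% and 23.2%. The medians of all genes were 49.9% and 29.4%. EXOSC4, the lowest, had the highest GC content of the 39 (64.0%) and a 3′ UTR of 47 bases with 12.8% U. EXOSC7 had the highest U content (43.2%), with a GC content of 50.6%. SMG1 (43.1% GC) and EXOSC6 (45.8% GC) were exceptions among the genes below, with 32.9% and 34.5% U in the 3′ UTR.

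A run of at least 6 U was present in the 3′ UTR of all 8 genes above and of 3 of the 7 below, beside 62.0% of all genes with a 3′ UTR. The motif AUUUA was present in 7 of the 8 and 4 of the 7, beside 69.7% of all genes. Both were searched on the RNA strand only, and long UTRs hold more matches. With the relation to GC content removed from each array, 16 of the 39 genes changed sign and the median over the 39 was -0.25. This step used the GC content of the longest protein-coding transcript and not of the canonical one. For CNOT2, which changed sign, that was 34.1%, beside 41.7% in the canonical transcript. Of the 15 genes on one side in every pair, CNOT6L changed sign (0.74 to -0.53) and the other 14 did not. The ratio of CNOT7 moved from 1.98 to 0.66, that of UPF3B from 1.96 to 1.07 and that of UPF1 from -1.55 to -0.83, while CNOT8 was at 2.00 and EXOSC7 at 1.30.

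**Figure D5:**
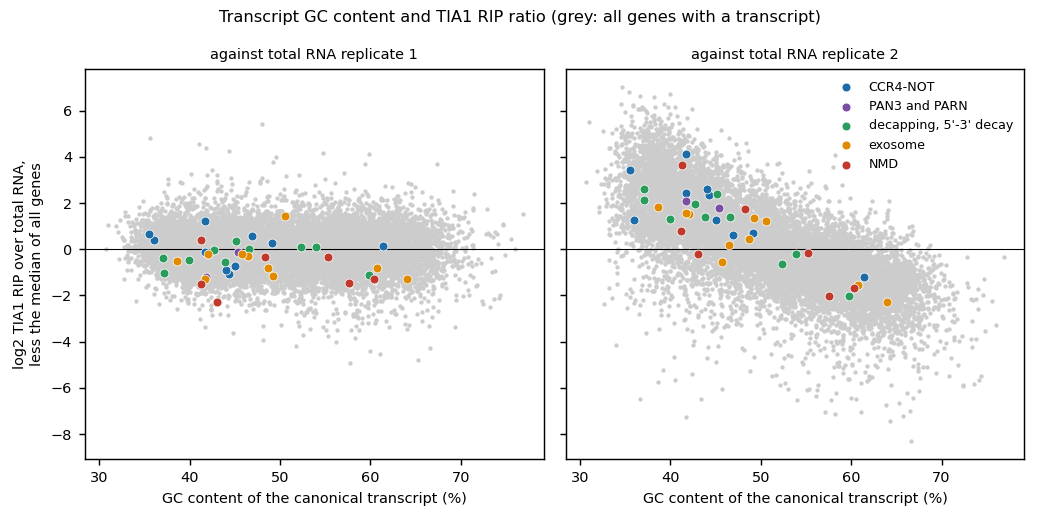
GC content of the canonical transcript (horizontal axis, %) and log2 ratio of TIA1 RIP over total RNA replicate 1 (left) and replicate 2 (right), less the median of all genes, for all genes with a transcript (grey) and the 39 genes of mRNA decay (coloured). The slope is visible against replicate 2 (rho = -0.76 over the 39 genes) and not against replicate 1 (rho = -0.11).

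Other genes of mRNA decay were taken from a second list of 68 partners of these complexes, of which 62 were kept. None passed the adjusted threshold in limma, and 3 of the 62 had an unadjusted p-value under 0.05, beside 5.12% of all genes. They had a median ratio of 0.45, beside 0.37 for the 39 genes, and 15 (24.2%) lay above all genes in all 4 pairs and 9 (14.5%) below, beside 20.2% and 21.3% of all genes. Of the 62, 14 were not well above background in total RNA replicate 2 and were kept only through TIA1 RIP. They enter these counts and the medians, which are therefore no support for a direction. The median of the partners of the exosome was 1.03 (15 genes; -0.01 and 2.22 against replicates 1 and 2), and that of the partners of deadenylation was -0.21 (19 genes; -0.50 and 0.45). Partners of decapping had 0.11 and 0.31 against replicates 1 and 2. Partners of NMD had a median of 0.67 (14 genes), with -0.08 and 1.31 against replicates 1 and 2. On the means this lay above all genes, whereas the median of the NMD genes themselves was -0.43. The order of these groups of partners changed with the array.

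Among the partners detected on all 4 arrays, the highest ratios were those of BTG2 and NUDT3 and the lowest those of TNRC6C and SKIC2. BTG2, an antiproliferative protein that binds CNOT7 and CNOT8, stood at 2.35 and 3.19 in TIA1 RIP and 0.40 and 2.16 in total RNA (ratio 1.52). NUDT3, a hydrolase with decapping activity, stood at 1.96 and 2.30 in TIA1 RIP and 0.26 and 1.08 in total RNA (1.49). All 4 TIA1 RIP values exceeded their total RNA values.

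TNRC6C, a GW182 protein that recruits CCR4-NOT to microRNA targets, stood at 1.58 and 0.58 in TIA1 RIP and 3.17 and 3.78 in total RNA (-2.36). SKIC2, the helicase that feeds RNA into the cytoplasmic exosome, stood at -0.96 and -0.85 in TIA1 RIP and 0.44 and 2.41 in total RNA (-2.29). None of the 4 differed past the adjusted threshold (adjusted p = 0.776 in limma for each).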

How the data were processed

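RNA from 2 TIA1 immunoprecipitates and 2 total RNA (input) samples of KYSE180 cells was measured on 4 single-colour arrays. The authors deposited Agilent Feature Extraction 10.7.1.1 output, which holds the intensity of each spot on a linear scale, background-subtracted and not normalised between arrays. Other deposited columns, the flags for uneven, deviant and detected spots, served as filters. The authors compared immunoprecipitates with GAPDH in GeneSpring, and a test for that step is not given in the sources used here. All 4 arrays were on 1 slide with 1 scan time, and their number limits the precision.

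The log2 processed signal was taken, flagged spots were left out, and the 75th percentile of the array was subtracted. Spots were averaged per probe. A probe was detected when at least 0.5 of its spots were well above background, and 20100 probes detected on both TIA1 RIP or both total RNA arrays were kept. Probes were named through RefSeq accessions (names only) and GENCODE transcripts on GRCh37, and 34506 of 50599 probes had a symbol. Kept probes of a symbol were averaged. limma 3.58.1 in R 4.3.3 (lmFit, eBayes) was fitted over all 13038 genes with Benjamini-Hochberg adjustment at 0.05, and tested on simulated data. The 2.5-fold limit relative to GAPDH is that of the study, which required it in RIP-seq as well (not analysed here). Transcript features came from the Ensembl canonical transcript. The longest protein-coding transcript, planned first, was partial for some genes. It was still the source of the GC content that was removed from each array.

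The members and lists were chosen with earlier results of these data known. The rule for named genes took all listed genes, GAPDH, and the highest and lowest pair of ratios among partner genes detected on all arrays, as no partner passed the threshold.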

Additional observations from a re-analysis of the deposited data

How the results depend on the processing

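The count of 0 genes called by limma was the same under every alternative run except the omission of an array, where it ranged from 0 to 10, with 10 without total RNA replicate 1. Without each array in turn, the count past 2.5-fold above GAPDH ranged from 8 (without total RNA replicate 2) to 34. It was 16 after quantile normalisation, 21 with only probes detected on all 4 arrays (28 genes), 17 with GC content removed, and 3 with the median of all genes as the reference. The count above all genes in every pair ranged from 8 to 26 without an array, which leaves 2 pairs, and the count below from 7 to 22. Without the filter on dim probes these counts were 5 and 2, and 12 lay below with GC content removed. Without TIA1 RIP replicate 1, 11 lay below, and without TIA1 RIP replicate 2, 14 lay above. The median ratio over the 39 genes ranged from -0.35 to 1.33 without an array and was -0.25 with GC content removed. The medians of decapping (-0.21 to 1.41) and the exosome (-0.65 to 0.84) depended on the total RNA array left out. The cause of these shifts was not tested. Under every alternative run that gave medians, the median of CCR4-NOT lay above all genes (0.10 to 1.83) and that of NMD below (-1.27 to -0.17). These runs reuse the same arrays. With the main filter, 5 of the 10 genes of CCR4-NOT were kept only through the TIA1 RIP arrays, so its range is no support for a direction. Spearman's rho with the U content of the 3′ UTR was 0.51 over the longest transcripts, as planned. The canonical transcripts (0.67) were added after the data were seen. The labels number the replicates but name no shared batch. The deviations of same-numbered arrays correlated with r = 0.45 over 13038 genes. With a block for the replicate number, 0 of the 39 genes were called by limma (lowest adjusted p 0.102), beside 57 genes higher and 299 lower among all genes. With the block and GC content removed it called 0 of the 39, and 14 of the 39 relative to GAPDH, beside 5709 of 11635 genes. A slide or scan block could not be fitted, since all arrays share both. The low signal of total RNA replicate 2 limits what can be said of the 11 genes not well above background there.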
